A study of Mus musculus with 20 samples.

Results

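Lin28a, Lin28b, Trim71, Hmga2, Igf2bp1, Igf2bp2, Igdcc3, Sall4 and Dusp9 are 9 genes known from early embryonic cells, described here across 6 polyA RNA libraries of mouse brain. They were taken by symbol, and all 9 were found among the 34620 symbols of each count table. The set was chosen by measured values of these same libraries, namely the steepness of its drop in CPM between precursor and young tissue in the hippocampal and the striatal lineage, and the level that remained in dorsal spiny neurons. Values along that course are therefore a description and carry no test, while the difference between the lineages was tested.

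The 6 libraries came from microdissected tissue of animals labelled male, wild type and C57BL/6. Each of hippocampal precursors (HP), striatal precursors (SP), young hippocampal CA pyramidal neurons (yCA) and young medium spiny neurons (yMSN) has 1 library, and dorsal medium spiny neurons (dMSN) have 2. The labels write the spiny neurons as medial, and no age, number of animals or pooling is stated in the sources used here. No label says that the dMSN libraries came from separate animals, so their spread may be technical. Bisulfite data exist for another 14 samples and were not analysed here.

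As background, Lin28a and Lin28b encode RNA-binding proteins that bind precursors of the let-7 microRNAs and hold back their maturation, and Trim71, also called Lin41, encodes a ubiquitin ligase and RNA-binding protein whose own message let-7 represses. Several of the other genes, Hmga2, Igf2bp1, Igf2bp2 and Igdcc3 among them, are known let-7 targets, and Lin28b is also one. In neural development this circuit is known for its part in the timing of precursor growth and differentiation.

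The microRNAs of this circuit are shown because their shared seed is what groups the targets. The mature sequences come from RefSeq (build GRCm38.p6), with the seed, bases 2 to 8, in capitals, and the 9 mature members of the let-7 family found there, from 11 matched genes, share the seed GAGGUAG. They differ outside it, as the 4 shown here do, and the pair miR-125a and miR-125b, from 3 matched genes, shares another seed, CCCUGAG. miR-125b is the mammalian relative of lin-4, which works beside let-7 in worms.
let-7a-5p, chr13:48538239-48538260, minus strand: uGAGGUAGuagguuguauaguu
let-7d-5p, chr13:48536078-48536099, minus strand: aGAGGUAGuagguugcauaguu
let-7g-5p, chr9:106178846-106178867, plus strand: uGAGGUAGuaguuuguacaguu
miR-98-5p, chrX:151913229-151913250, plus strand: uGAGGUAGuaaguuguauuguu
miR-125b-5p, chr9:41581940-41581961, plus strand: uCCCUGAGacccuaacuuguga

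The depth and the makeup of the libraries bear on every value below. Gene counts ran from 31282185 to 36969136 in the 4 single libraries and were 152347673 and 145713678 in dMSN. Where a gene has 0 counts, a level of up to 3 counts is allowed, which is 0.0691 to 0.0861 CPM (read counts relative to library size, with libraries scaled by the TMM method) in the single libraries and 0.0249 and 0.0259 CPM in dMSN. Ppp1r1b, which marks medium spiny neurons, stood at 2524 ± 72.2 CPM in dMSN (SD, n = 2) but at 19.1 CPM in yMSN and 26.1 in yCA. Neurod6, of pyramidal neurons, stood at 396 CPM in yCA and 169 in yMSN, and also at 50.4 and 93.9 in dMSN 1 and dMSN 2. The libraries labelled SP and yCA held 0 counts of 3 Y-linked genes, against 672 in HP and 2108 in yMSN. Xist, transcribed from the inactive X of female cells, ran from 489 to 1088 CPM in the 4 single libraries and had 4 and 0 counts in dMSN, all 6 being labelled male. Summed levels of 12 marker lists showed other tissues in the young libraries: skeletal muscle genes reached 5610 CPM in yCA and 2099 in yMSN against at most 60.5 elsewhere, and meningeal and fibroblast genes 13800 CPM in yMSN against 97.2 to 2125 elsewhere. Summed cell cycle genes stood at 3601 and 3616 CPM in HP and SP, 811 and 936 in yCA and yMSN, and 20.7 and 23.3 in dMSN, and radial glia genes at 2599, 3714, 1641, 1677, 557 and 603 CPM in the same order. The precursor libraries held other tissue too, and some of it followed the course of the 9 genes. Summed erythroid genes stood at 2081 and 2161 CPM in HP and SP, 76.6 and 153 in yCA and yMSN, and 1.53 and 1.59 in dMSN, and midbrain, hindbrain and spinal cord genes at 193 CPM in SP against 43.8 in HP and at most 26.2 elsewhere. The part of these tissues and cell classes in the members' values was not tested, and in bulk tissue fewer cells of a type and less RNA per cell cannot be told apart.

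Lin28a was abundant in both precursor libraries and nearly gone in young tissue. It stood at 33.8 CPM in HP and 48.9 in SP, at 0.129 in yCA and 0.507 in yMSN, and at 0.0416 and 0.0345 in dMSN 1 and dMSN 2. The dMSN levels rest on 5 and 4 counts, close to what a count of 0 allows, and the yCA level also rests on only 5 counts. yCA thus held 0.380% of the HP level (exact 95% interval 0.123 to 0.890, counting error only, as for every interval here), and yMSN held 1.04% of the SP level (0.648 to 1.57). These intervals overlap between the lineages.

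Lin28b, its paralog, was also highest in precursors but kept a measurable level throughout. It stood at 89.1 CPM in HP, 87.1 in SP, 10.1 in yCA and 7.90 in yMSN. In dMSN it stood at 3.39 and 3.16 CPM, from 408 and 366 counts. The share of the precursor level was 11.4% in yCA (10.2 to 12.6) and 9.06% in yMSN (8.09 to 10.1). dMSN 1 and dMSN 2 held 3.89% (3.50 to 4.31) and 3.63% (3.25 to 4.04) of the SP level, a larger share than for any of the other 8 genes. Dusp9 came next, at 2.48% (1.98 to 3.08) and 3.34% (2.73 to 4.05), and in dMSN 2 the intervals of these genes overlap.

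**Figure D1:**
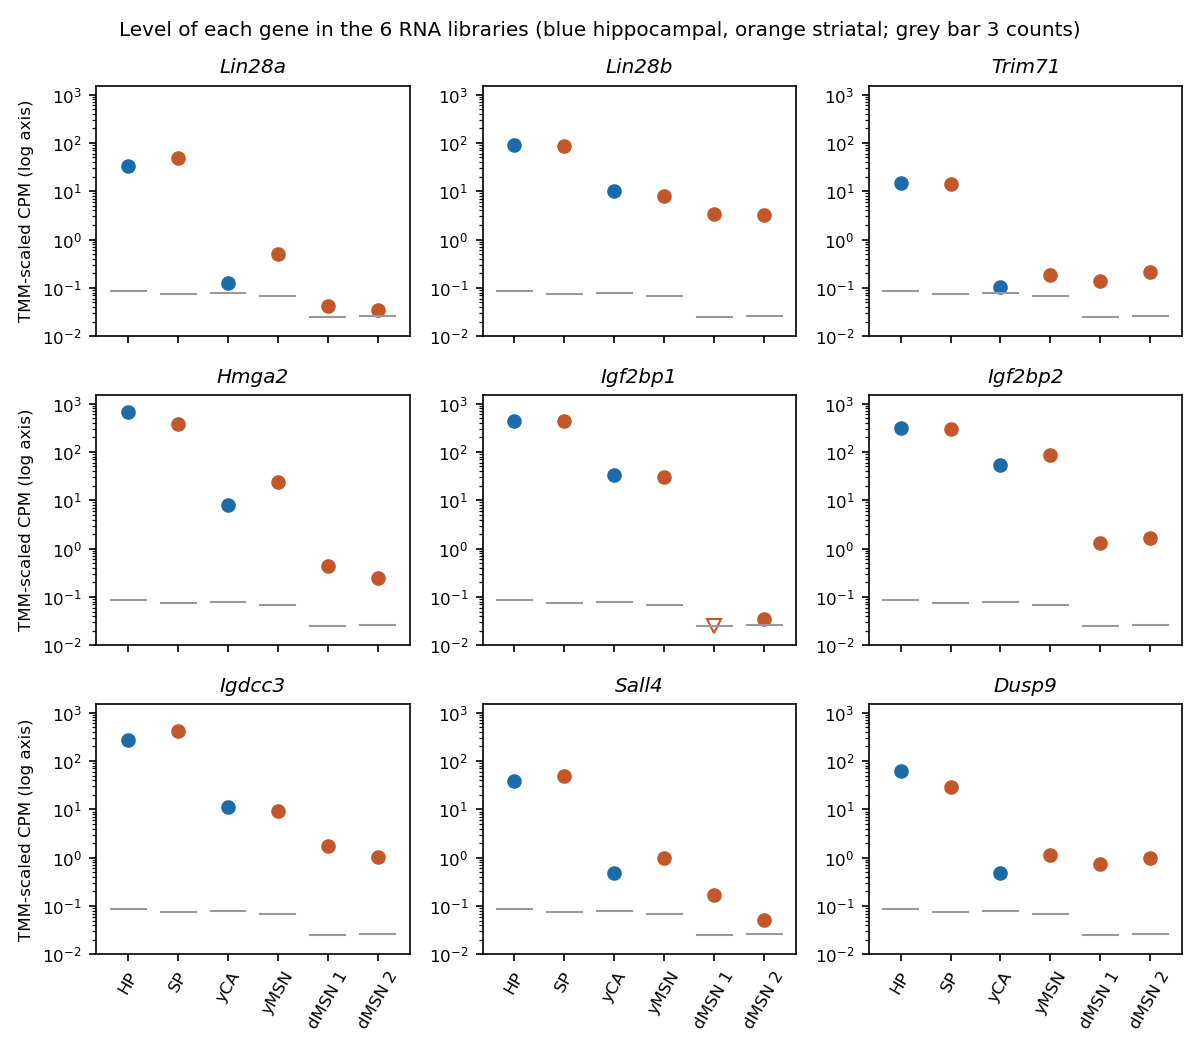
Level of each of the 9 genes in TMM-scaled CPM on a log axis, 1 point per library, hippocampal in blue and striatal in orange. Grey bars mark the level of 3 counts and the open triangle a count of 0. HP and SP hold the highest 2 levels of every gene, and Lin28b stays at 3.39 and 3.16 CPM in dMSN while Lin28a lies near the grey bars.

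Trim71 reached its low level in young tissue and stood near it in dMSN. Its levels were 14.6 CPM in HP, 14.4 in SP, 0.103 in yCA and 0.184 in yMSN, and 0.141 and 0.216 in dMSN 1 and dMSN 2. yCA held 0.704% of the HP level (0.191 to 1.81) on 4 counts, and yMSN held 1.28% of the SP level (0.551 to 2.54) on 8 counts. Against yMSN, dMSN 1 stood at 76.7% (31.4 to 205) and dMSN 2 at 117% (51.2 to 300), so that both intervals include no difference.

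Sall4, a zinc finger transcription factor of embryonic stem cells, resembled Lin28a in going on to lower levels. It stood at 39.1 CPM in HP, 48.2 in SP, 0.488 in yCA and 0.990 in yMSN, with 0.166 and 0.0518 in dMSN. These values leave 1.25% of the HP level in yCA (0.750 to 1.96) and 2.06% of the SP level in yMSN (1.48 to 2.78). In dMSN 1 and dMSN 2 it was 16.8% (9.36 to 29.2) and 5.23% (1.82 to 12.3) of the yMSN level, on 20 and 6 counts.

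Dusp9 encodes a phosphatase that inactivates MAP kinases and is X-linked, so the sex-linked counts above stand beside its values and their part was not tested. It was the member that differed most between the precursors, at 62.4 CPM in HP and 29.5 in SP. Young levels were 0.488 CPM in yCA and 1.13 in yMSN, and dMSN levels were 0.732 and 0.984. The yCA level was 0.783% of that in HP (0.470 to 1.23) and the yMSN level 3.83% of that in SP (2.81 to 5.09), intervals that do not overlap. As with Trim71, the TMM-scaled level in dMSN lay near that in yMSN, at 64.8% (45.2 to 93.9) and 87.2% (61.9 to 125) of it.

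Hmga2, a chromatin protein that binds AT-rich DNA and is known from self-renewing neural stem cells, followed another course. It stood at 668 CPM in HP and 378 in SP, 7.94 in yCA and 24.3 in yMSN, and 0.432 and 0.242 in dMSN. In yCA 1.19% of the HP level was left (1.06 to 1.33), against 6.42% of the SP level in yMSN (6.03 to 6.84). From yMSN on it was lower again by a large factor: dMSN 1 and dMSN 2 held 1.78% (1.32 to 2.35) and 0.996% (0.659 to 1.45) of the yMSN level.

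Igf2bp1 and Igf2bp2 encode RNA-binding proteins first known for binding the Igf2 message. In young tissue Igf2bp2 kept the largest share of its precursor level among the 9 genes, in both lineages. Igf2bp1 stood at 445 CPM in HP, 442 in SP, 33.6 in yCA and 30.1 in yMSN, which is 7.55% (7.13 to 7.98) and 6.81% (6.43 to 7.20) of the precursor levels. Igf2bp2 stood at 314, 293, 54.4 and 85.2 CPM in the same order, which is 17.3% (16.5 to 18.2) and 29.1% (28.0 to 30.2).

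In dMSN these 2 genes parted. Igf2bp1 had 0 counts in dMSN 1, where 0.0249 CPM would be 3 counts and the level, set at that floor, was at least 1208-fold lower than in yMSN, and 4 counts in dMSN 2, at 0.0345 CPM. Igf2bp2 kept 1.33 and 1.67 CPM, from 160 and 193 counts, which is 1.56% (1.32 to 1.83) and 1.96% (1.68 to 2.26) of the yMSN level. Both were thus far lower in dMSN than in yMSN, but Igf2bp2 remained clear of the counting floor.

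Igdcc3, also called Punc, encodes an immunoglobulin superfamily receptor-like protein. Its levels were 269 CPM in HP, 420 in SP, 11.3 in yCA and 9.26 in yMSN, and 1.74 and 1.02 in dMSN. It had a larger share left in the hippocampal lineage, 4.19% of the HP level (3.80 to 4.61) against 2.20% of the SP level (1.99 to 2.43), with intervals that do not overlap. Lin28b was the other gene with a larger hippocampal share and intervals that do not overlap. Its gap was narrow (10.21 to 12.63 against 8.09 to 10.13), and these intervals leave out any error of the scaling between libraries. Igf2bp1 also had a larger hippocampal share, 7.55% against 6.81%, but with overlapping intervals. dMSN held 18.8% (15.8 to 22.2) and 11.0% (8.89 to 13.5) of the yMSN level.

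Side by side, the 9 genes shared a drop to young tissue but not its size or timing. Between HP and yCA all 9 were at least 2-fold lower, and 8 were at least 8-fold lower, against 14.6% and 1.31% of the 19192 genes tested. Between SP and yMSN all 9 were at least 2-fold lower and 8 at least 8-fold lower, against 9.87% and 0.943%. Since the genes were chosen for this drop, nothing is read from these counts. Igf2bp2 lay below the 8-fold mark in both lineages. The median log2 ratio, with a prior count of 2, was -6.24 in the hippocampal and -4.67 in the striatal pair, beside 0.01 and 0.14 over all genes tested, and RLE scaling moved the latter to -0.01.

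From yMSN to dMSN the genes took different courses. The log2 ratio of dMSN over yMSN, again with a prior count of 2, was -9.40 for Igf2bp1, -6.10 for Hmga2 and -5.81 for Igf2bp2, against a median of -2.97 over the 9 and -0.13 over all genes tested. By that measure 7 of 9 were at least 2-fold lower and 4 at least 8-fold lower, where 32.1% and 9.41% of all genes were. Trim71 and Dusp9 were the 2 exceptions to the 2-fold mark. For Dusp9 this depends on scaling: its log2 ratio was -0.40 with TMM and -0.951, close to that mark, on total counts with no scaling factor. Sall4 at -3.003 and Lin28a at -2.971 lay on either side of the 8-fold mark, and Sall4 was at -2.375 without dMSN 2. The level left in dMSN was part of the choice of the genes, so nothing is read from these counts. Igf2bp1, with more of its SP level left in yMSN than Lin28a or Trim71, had the smallest share of the 9 left in dMSN.

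**Figure D2:**
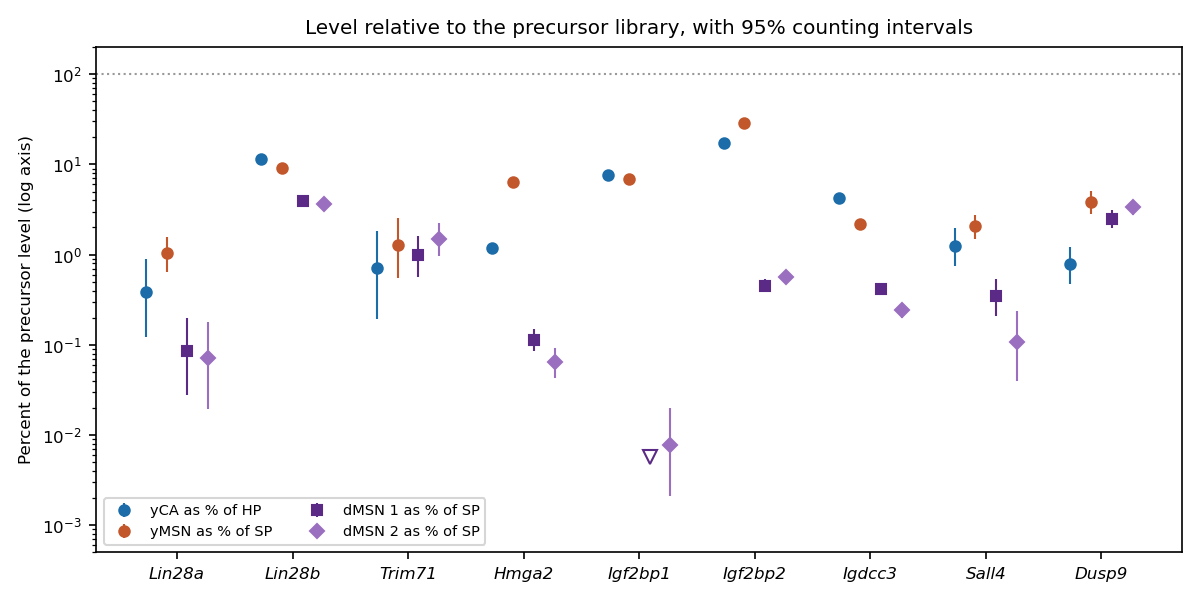
Level in yCA as a percentage of HP, and in yMSN and each dMSN library as a percentage of SP, on a log axis with exact 95% counting intervals. The open triangle marks the level of 3 counts for Igf2bp1 in dMSN 1, which had 0. The dMSN points of Trim71 and Dusp9 sit near their young points, while those of Igf2bp1 and Hmga2 lie far below.

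The second question was whether levels of the 9 genes depend on lineage, striatal or hippocampal. The contrast was fitted over all 6 libraries with lineage and stage as terms, which leaves 2 residual degrees of freedom. In edgeR 0 of 9 passed at an adjusted p of 0.05, as did 0% of the 19192 genes tested, and DESeq2 and limma voom called 0 of the 9. At an unadjusted p below 0.05 there was 1 of 9, Lin28a, where 4.3% of all genes were. Lin28a was higher in the striatal library at both stages, with a log2 difference of 0.94 (SE 0.367, unadjusted p = 0.0477, edgeR adjusted p = 1). This design could not tell any of the 9 apart between lineages, which does not show that their levels were alike.

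For some genes the difference between the single libraries had opposite signs at the 2 stages. Hmga2 in SP was 0.566 times its HP level (0.554 to 0.578), and in yMSN 3.05 times its yCA level (2.69 to 3.48). Dusp9 did the same, at 0.472 times (0.440 to 0.507) in the precursors and 2.31 times (1.34 to 4.15) in young tissue. Igdcc3 went the other way, at 1.56 times in the precursors and 0.822 times (0.716 to 0.943) in young tissue, and Igf2bp2 stood at 0.933 times (0.908 to 0.957) and 1.57 times (1.48 to 1.65). The 2 dMSN libraries, of 1 group, also differed beyond counting error in these 4 genes. dMSN 1 stood at 1.79 times the dMSN 2 level for Hmga2, 0.744 for Dusp9, 1.71 for Igdcc3 and 0.798 for Igf2bp2. The counting intervals thus do not cover the spread between libraries. The test of this difference between stages would need replicates of each cell group and was not made.

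For Hmga2 the fitted log2 difference was 0.36 (SE 0.619, edgeR adjusted p = 1). Without HP it was 1.61 (adjusted p = 0.00548), and without SP also 1.61 (adjusted p = 0.00512). In those fits the contrast rests on yMSN against yCA, 1 library each, with the spread taken from the dMSN pair, and without yCA or yMSN it was -0.82. By log2 ratio with a prior count of 2, 3 of the 9 genes were at least 2-fold higher in yMSN than in yCA, Lin28a, Hmga2 and Dusp9, beside 14% of all genes, and 1 was at least 2-fold lower in SP than in HP, Dusp9, beside 3.53%. The yMSN library also held more of the meningeal and bone genes than yCA, 13800 against 1923 CPM and 859 against 95.5 CPM in sum, whose part in these ratios was not tested.

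**Figure D3:**
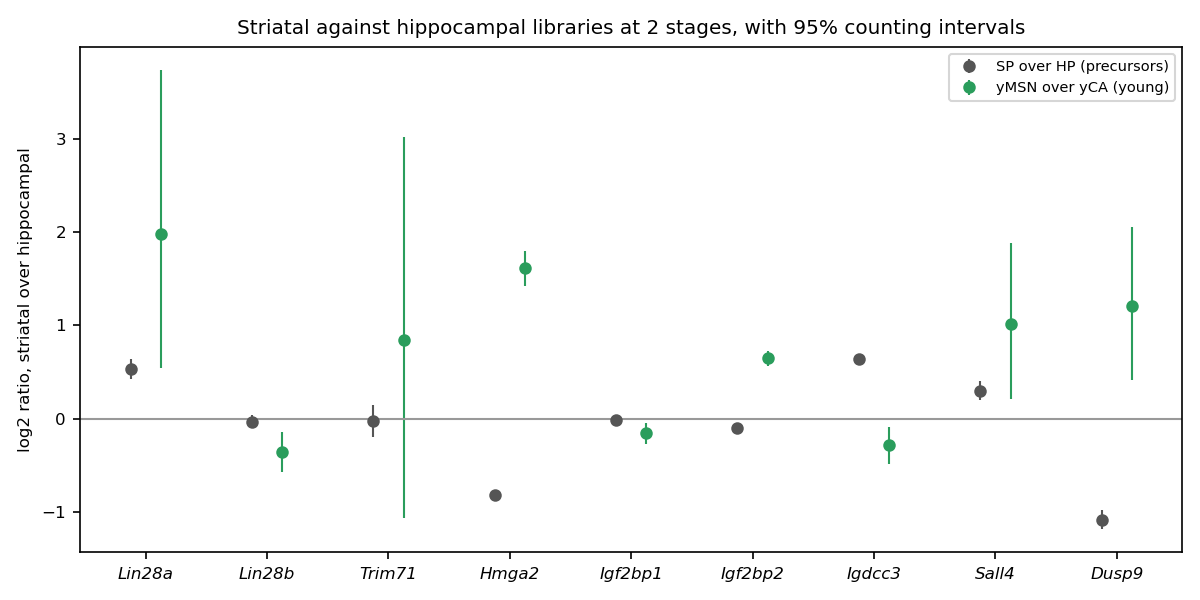
log2 ratio of the striatal over the hippocampal library for each gene, in precursors (grey) and in young tissue (green), with exact 95% counting intervals. Hmga2 and Dusp9 lie below 0 in precursors and above 0 in young tissue, and the wide intervals of Lin28a and Trim71 in young tissue follow from 4 to 22 counts.

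The genes whose log2 CPM followed Lin28a most closely over the 6 libraries were Gtf2i, Greb1, Qars, Brpf3, Hlcs and Ddx23, among 13526 genes with a mean of at least 1 CPM. Their Pearson correlations were 0.997 to 0.999, a description of 6 libraries that share stage, depth and makeup. Correlation takes no account of size. Greb1 stood at 79.4 CPM in HP and 118 in SP, 2.47 in yCA and 3.82 in yMSN, and 1.16 and 1.03 in dMSN, a steep course like that of Lin28a, but Gtf2i ran only from 541 CPM in SP to 324 in dMSN 2. Among the 6 genes that followed Lin28b most closely were Cpsf3l, Rbm28, Ctdp1, Srpk1 and Ddx52, and Cpsf3l ran only from 63.1 CPM in HP to 39.5 in yCA and 32.9 in dMSN 1.

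Other known let-7 targets were mostly lower in young tissue too. Of 27 listed targets that are not among the 9, 16 fell and 1 rose in young against precursor tissue, with a median log2 change of -1.13 against 0.10 over all genes tested, of which 13.7% fell and 21.7% rose. Igf2bp3, the third gene of the Igf2bp family, fell by 2.81 on the log2 scale (SE 0.252, edgeR adjusted p = 0.00249). Its levels were 178 CPM in HP and 182 in SP, 27.6 in yCA and 23.7 in yMSN, and 0.233 and 0.414 in dMSN, a course like that of Igf2bp1 with a small remainder in dMSN. Arid3b fell by 2.63, and Hmga1, the relative of Hmga2, fell by 2.46. Acvr1c, a receptor of the TGF-beta family, rose by 2.99 (SE 0.641, edgeR adjusted p = 0.0204), but not without a dMSN library (adjusted p = 0.0744 and 0.0737). Myc and Insr had values above 0 that did not pass.

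Between yMSN and dMSN 21 of the 27 targets fell and 2 rose, with a median of -2.28 against -0.11 over all genes tested, of which 35.4% fell and 32.1% rose. Igf2bp3 and Thbs1 fell, with log2 changes of -6.19 and -6.10, while Acvr1c rose by 4.22 and Cdc34 by 1.72. The Acvr1c call was lost in fits with lineage and stage terms that left out dMSN 1 or dMSN 2 (adjusted p = 0.0555 and 0.0579). Hmga1 did not pass, with 27.2 CPM in yCA and 50.2 and 34.9 in dMSN (log2 change 0.28 from yMSN), so Hmga1 and Hmga2 parted after the young stage. Many targets are cell cycle genes (Ccnd1, Ccnd2, Cdc25a, Cdk6), and the summed cell cycle level changed alongside.

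**Figure D4:**
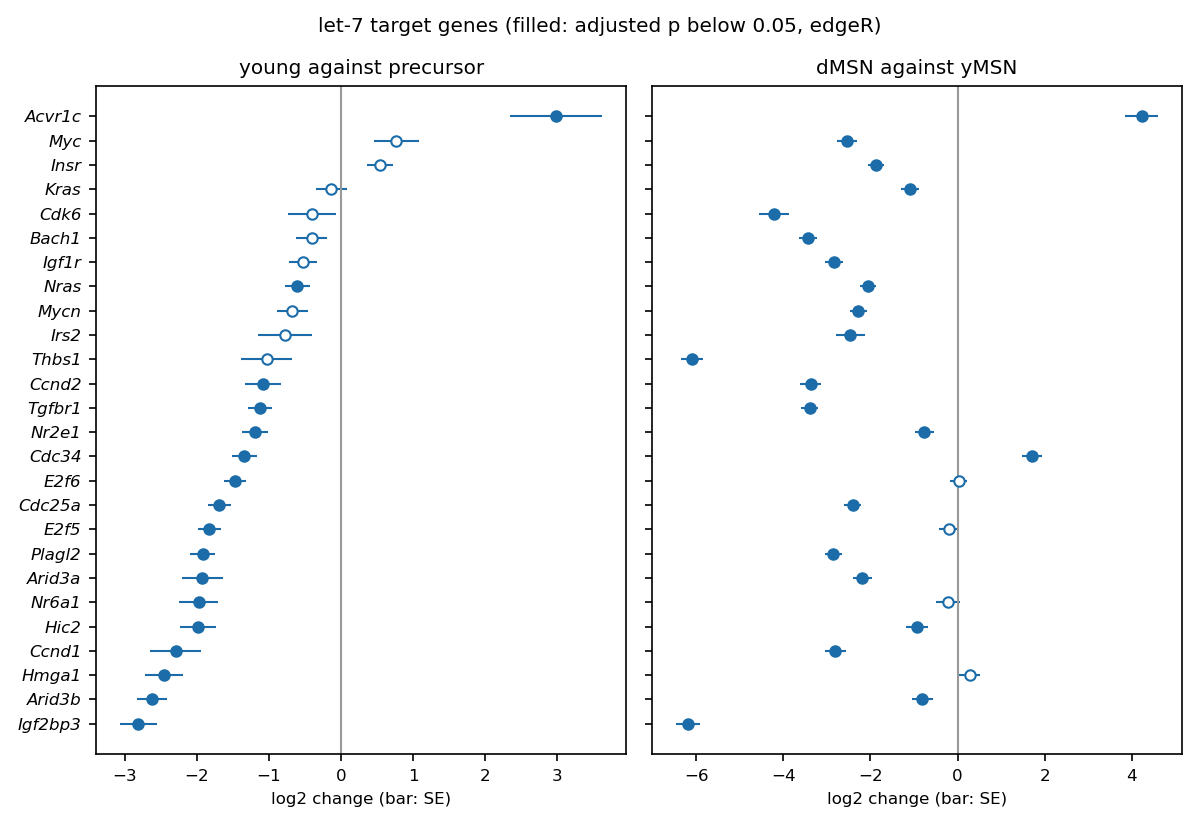
log2 change of 26 of the 27 let-7 target genes, with SE bars, in young against precursor tissue (left) and dMSN against yMSN (right). Filled points passed at an adjusted p of 0.05 in edgeR, 17 on the left and 22 on the right, and most of them lie below 0.

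Genes that process microRNAs or turn over let-7 formed a list of 19. Of these 7 fell and 1 rose in young against precursor tissue (median -0.45), where 13.7% of all genes tested fell and 21.7% rose, a count of 8 that was 5 without dMSN 1, without dMSN 2 or without both. Dicer1, which cuts microRNA precursors, fell by 0.99 on the log2 scale (SE 0.192, edgeR adjusted p = 0.0153). Xpo5, which exports them from the nucleus, fell by 1.07, and Zcchc11, the uridylyltransferase TUT4 that works with Lin28a, fell by 1.08. Eif2c4, which encodes Argonaute 4, rose by 1.70. In dMSN against yMSN 12 of 19 fell and 1 rose (median -1.32), where 35.4% of all genes fell and 32.1% rose, with log2 changes of -2.57 for Zcchc11, -2.48 for Eif2c1, -2.28 for Eif2c2 and -2.04 for Dicer1. Eif2c1 and Eif2c2 encode Argonaute proteins.

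The let-7 and miR-125 loci themselves gave almost no reads. Of 15 listed gene symbols 13 were in the tables, and their counts summed to 3 and 1 in the precursors HP and SP, 28 and 27 in yCA and yMSN, and 148 and 106 in dMSN. The dMSN libraries are deeper, and in CPM the sums were 0.0862, 0.0252, 0.720, 0.622, 1.23 and 0.915 in the same order. Mirlet7b reached 0.582 CPM and Mirlet7c-2 0.382 CPM, both in dMSN 1. Mirlet7c-2 was the only one of 2 tested that passed in young against precursor tissue, where it had 0 counts in HP and in SP, and it was not called in DESeq2 or when HP, yCA or a dMSN library was left out. PolyA libraries do not measure mature microRNAs, so these counts give no level of let-7.

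Relatives of the 9 genes did not move as a block. Of 27 listed relatives, 7 fell and 5 rose in young against precursor tissue, with a median of -0.23, beside 13.7% and 21.7% of all genes tested. Prtg, the protogenin gene of the same immunoglobulin family as Igdcc3, fell by 4.56 (SE 0.300, edgeR adjusted p = 0.00152). It stood at 41.1 CPM in HP and 59.2 in SP, 1.36 in yCA and 3.13 in yMSN, and 2.05 and 1.61 in dMSN. Dusp8, another MAP kinase phosphatase, rose by 2.76 where Dusp9 was lower, and Csdc2, a cold shock domain gene, rose by 3.17 where the cold shock domain genes Lin28a and Lin28b were lower. In dMSN against yMSN 13 relatives fell and 6 rose, beside 35.4% and 32.1% of all genes. Among them were Dcc, a netrin receptor, with a log2 change of -5.85, Dusp4 with -4.83 and Dusp5 with 3.04. That count of 19 was 12 and 11 in fits with lineage and stage terms that left out dMSN 1 or dMSN 2.

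Insulin-like growth factor genes were also listed, among them Igf2, whose message the Igf2bp proteins are known to bind. Of 14 tested, 5 rose and 0 fell in young against precursor tissue, where 21.7% of all genes rose and 13.7% fell. Igf2 rose by 1.32 and the neighbouring noncoding H19 by 1.69 on the log2 scale. Igf2 had 675 CPM in HP and 677 in SP, 1423 in yCA and 1986 in yMSN, and 118 and 108 in dMSN, and H19 at 1100, 975, 3056, 3671, 0.108 and 0.294. Igf2 and H19 were thus highest in the young libraries, where Igf2bp1 and Igf2bp2 were already below their precursor levels. Both are abundant in embryonic muscle and mesenchyme. The muscle list was highest in the same 2 libraries and the meningeal list in yMSN alone, with 1923 CPM in yCA against 2125 in HP, and their part was not tested. The count of 5 was 8 when HP, SP, yCA or yMSN was left out, of which 1 or 2 fell, and 9 with 1 mean per cell group, of which 3 fell. In dMSN against yMSN 11 of 14 fell and 2 rose, beside 35.4% and 32.1% of all genes, with log2 changes of -14.15 for H19, -5.30 for Irs1, -4.14 for Igf2 and 4.38 for Igfbp6, a binding protein that prefers Igf2.

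Pluripotency genes were mostly at low levels. Of 21 listed genes 15 were below 1 CPM in HP and 15 in SP. Pou5f1, which encodes Oct4, had at most 1 count in any library, and Dppa3, Dppa4 and Tcl1 had 0 in all. Among the 12 tested, 4 rose and 1 fell in young against precursor tissue, beside 21.7% and 13.7% of all genes. Nr0b1 fell by 3.01 on the log2 scale, from 1.09 CPM in HP and 2.47 in SP to 0.206 in yCA and 0.207 in yMSN. L1td1, which encodes an RNA-binding protein known to interact with Lin28a, had a log2 change of -2.87 that did not pass (SE 1.13, edgeR adjusted p = 0.105) but did pass in DESeq2 (adjusted p = 0.046) and without dMSN 1 or dMSN 2 (adjusted p = 0.043 and 0.0413). Klf4 and Tfcp2l1 rose by 2.52 and 2.37. Summed epidermal and oral epithelial genes moved alongside, from 31.6 and 14.2 CPM in HP and SP to 341 and 488 in yCA and yMSN, and their part was not tested. The Tfcp2l1 call was lost without yMSN (adjusted p = 0.0526) and without either dMSN library. Between yMSN and dMSN 4 of the 12 fell and 3 rose, near the shares of all genes (35.4% and 32.1%), a count of 7 that was 2 in DESeq2 and 1 in the fits with lineage and stage terms that left out either dMSN library.

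Promoters were compared because the series concerns DNA methylation, which acts at CpG dinucleotides. RefSeq windows of 300 bases around the start (GRCm38.p6) were matched for 6 of the 9 genes. They held 10 CpG for Lin28a, 8 for Lin28b, 19 for Trim71, 12 for Hmga2, 47 for Igf2bp2 and 38 for Igdcc3, beside a median of 7 over 32841 windows. Igf2bp2 and Hmga2 are shown as 2 of the genes with a further large drop from yMSN to dMSN, and with unlike CpG content. The 250 bases upstream of the start are read along the gene's strand, each CpG in capitals.
Hmga2, chr10:120476470-120476719, minus strand: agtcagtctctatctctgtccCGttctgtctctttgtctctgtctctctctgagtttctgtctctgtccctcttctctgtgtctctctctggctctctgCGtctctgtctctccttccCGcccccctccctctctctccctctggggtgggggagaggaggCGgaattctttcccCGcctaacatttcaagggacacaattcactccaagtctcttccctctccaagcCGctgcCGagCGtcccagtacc
Igf2bp2, chr16:22163300-22163549, minus strand: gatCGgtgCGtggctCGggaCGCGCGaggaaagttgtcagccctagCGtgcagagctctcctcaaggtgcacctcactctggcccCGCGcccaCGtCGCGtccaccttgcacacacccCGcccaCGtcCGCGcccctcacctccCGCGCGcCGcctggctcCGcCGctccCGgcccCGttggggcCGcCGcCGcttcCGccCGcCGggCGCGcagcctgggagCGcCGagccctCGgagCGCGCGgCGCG
The upstream stretch of Hmga2 held 8 CpG and that of Igf2bp2 40. The GC box GGGCGG was found on either strand in 5 of the 6 windows and in 35.7% of all windows, and the E box CACGTG in that of Lin28b and in 7.2% of all. CCAAT was present in 2 of the 6 and 37.4% of all, and TATAAA in 0 of the 6 and 13.6% of all. All 4 motifs were searched on both strands, none of them is contained in another, and a match describes letters only. No methylation value of these promoters was analysed here.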

How the data were processed

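For each library the authors deposited a table of raw counts by gene symbol, whose 5 closing summary lines were left out. Mouse builds mm9 and NCBIM37, TopHat2 2.0.2, Bowtie 1.0.0 and HTSeq are named, without roles, in the submitters' processing notes; the strand setting is not given in the sources used here. Of the reads per library, 17.3% to 27.3% aligned to several places and 5.34% to 9.81% fell in no gene. RefSeq names a pseudogene of Hmga2, so its counts are uncertain by the reads the 2 could share.

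The analysis used edgeR 4.0.16 under R 4.3.3 (TMM, filterByExpr, quasi-likelihood F test, Benjamini-Hochberg adjustment at 0.05 over 19192 genes). A model of lineage plus stage gave the contrasts of young against precursor and of the lineages. For dMSN against yMSN each cell group had its own mean, and only 1 residual degree of freedom was left. SE is the log2 change divided by the square root of F. All 9 genes passed the filter, for which the precursor counts sufficed. Single pairs have exact Poisson ratio intervals. The dMSN libraries differed beyond counting noise in 73.4% of 16090 genes and were kept as 2 samples.

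The genes and lists were chosen with earlier results of these data known. Named besides the 9 are, per list and comparison, up to 4 genes of at least 1 CPM with the largest change, and the 6 genes closest to Lin28a and to Lin28b; a few genes that this rule names are not reported here. Igf2, Hmga1 between yMSN and dMSN, Cdc34, Myc, Insr, Pou5f1, the cyclins, Dusp6, Dusp16, Ybx1, Ppp1r1b and Neurod6 were chosen after their values were seen. Lists overlap: the let-7 target list shares 3 genes with the insulin-like growth factor list and 2 with the relatives. Alternatives were RLE and upper quartile scaling, no filter, 1 CPM in 2 libraries, robust moderation, DESeq2 1.42.0, limma 3.58.1 (voom), the other model and each library left out. For single pairs, total counts with no scaling factor were also used. In simulated counts the young against precursor test recovered 59% of 2-fold and 90% of 4-fold changes among 18554 genes. The lineage test recovered 59% and 81%, and dMSN against yMSN 41% and 82%. Unchanged genes had 1 mean in all simulated libraries, with the spread taken from the dMSN pair. The simulation thus lacks other differences between libraries and does not give the recovery in the real data.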

Additional observations from a re-analysis of the deposited data

Results flagged for a closer look

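The difference between the striatal and the hippocampal library had opposite signs in precursors and in young tissue for 4 of the 9 genes, each beyond counting error. Every group has 1 library, so the change between stages was not tested. As log2 ratio of striatal over hippocampal, young minus precursor, it was 2.43 for Hmga2, 2.29 for Dusp9, 0.747 for Igf2bp2 and -0.928 for Igdcc3. The first 3 were lower in SP than in HP and higher in yMSN than in yCA, and Igdcc3 the reverse.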

How the results depend on the processing

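No paired analysis was possible because the groups share only the replicate number 1, which names 1 library each. For striatal against hippocampal, the count of 0 genes was 60 in DESeq2 and 356 with 1 mean per cell group. Leaving out each library in turn gave 0 to 1515 genes (1495 without HP, 1515 without SP, 116 without yCA, 130 without yMSN) and 0 to 1 of the 9 genes, the 1 being Hmga2 without HP or without SP; those 4 fits compare the lineages at 1 stage, with the spread from dMSN alone. Young against precursor gave 6798 genes and 3590 to 7355 with 1 library left out, the low values without dMSN 1 (3590) and dMSN 2 (3647), and 4421 without both, a fit added after the data had been seen. Its share of higher calls was 61.3%, 52.4% with RLE scaling and 51.2% in DESeq2. dMSN against yMSN gave 12948 genes, and 6609 without dMSN 1 and 7073 without dMSN 2 in added fits with lineage and stage terms, since the fit with 1 mean per group then had no residual degrees of freedom. The median log2 ratio of the 9 genes for dMSN over yMSN was -2.97, and -3.15 to -2.39 with 1 dMSN library. On total counts with no scaling factor it was -3.44, beside -0.685 over all genes tested.

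Signs changed for some log2 lineage differences, none of which passed except Hmga2 without HP or SP. With 1 library left out, Hmga2 (0.36) ranged from -0.82 to 1.61, Dusp9 (-0.17) from -1.08 to 1.20, Igdcc3 (0.20) from -0.28 to 0.65, Trim71 (0.22) from -0.027 to 0.83 and Igf2bp2 (0.27) from -0.10 to 0.65, the ends lying at fits without a precursor or without a young library. Hmga2 was -0.14 in voom, and Dusp9 was 0.061 with 1 mean per cell group. For L1td1 in dMSN against yMSN, 1.38 became -0.84 in the added fit without dMSN 1. The cause was not tested. The number of libraries, 1 in 4 of the 5 groups, limits the precision of every course described, and counts of 0 to 25 also limit it for Lin28a and Trim71 in both young libraries, for Sall4 and Dusp9 in yCA, and for Lin28a, Trim71, Igf2bp1 and Sall4 in dMSN. dMSN against yMSN could not be fitted without yMSN.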
